A study of Mus musculus with 32 samples.

Results

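The 10 cathepsin genes *Ctsa*, *Ctsb*, *Ctsc*, *Ctsd*, *Ctse*, *Ctsh*, *Ctsk*, *Ctsl*, *Ctss* and *Ctsz* were followed in mouse bone marrow-derived macrophages (BMDMs) in which *Trex1* had been inactivated, and in their controls. They were chosen by symbol from 54281 gene identifiers, all 10 were found in the count table, and all 10 passed the filter on low counts that left 15257 genes to be tested. The cells came from Trex1 FL/FL mice, in which both *Trex1* alleles are flanked by loxP sites, and from Trex1 WT/FL mice, which keep a wild type allele. Both genotypes carried R26 CreERT2, a Cre recombinase that is expressed from the Rosa26 locus and becomes active when 4-hydroxytamoxifen (4-OHT) binds to it. After differentiation in medium with L929 supernatant, cells received 2 µg/ml (Z)-4-OHT for 22 h or were left untreated, and RNA was sequenced 1, 2, 3 or 4 days after 4-OHT was removed. This gives 16 groups of 2 libraries, 32 in all. Because 4-OHT can also delete the floxed allele of Trex1 WT/FL cells, these cells are a control that may keep a single functional allele. Their *Trex1* transcript level was lower after 4-OHT than without it on each day, as given below. The labels state neither the age or number of mice nor whether the 2 libraries of a group came from separate animals or cultures, so p-values measure the spread between libraries, which may be technical, and libraries of several days may share a culture. In all 8 WT/FL groups the library with the lower title number held less *Ctsa*, *Ctsb* and *Ctsz* and more *Ctsl* than the other one, and in all 8 FL/FL groups it held less *Ctsc*.

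Cathepsins are proteases that mostly work in lysosomes, where macrophages break down ingested material and their own proteins. They are made as inactive proenzymes, carried from the Golgi to lysosomes by mannose 6-phosphate receptors or sortilin, and matured at low pH. *Ctsb*, *Ctsc*, *Ctsh*, *Ctsk*, *Ctsl*, *Ctss* and *Ctsz* encode cysteine proteases, *Ctsd* and *Ctse* aspartic proteases and *Ctsa* a serine carboxypeptidase. *Trex1* encodes a DNA exonuclease of the cytosol, and cells without it accumulate DNA that triggers type I IFN production.

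Total counts were 35120505 to 63760884 per library, with a median of 44841991. The 2 libraries of every group differed by more than sampling noise, with a ratio of chi-square to its degrees of freedom of 7.3 to 36.4, and none was counted as a duplicate. In 4-OHT-treated FL/FL cells *Trex1* had 0 counts in 6 of 8 libraries and 14 and 9 counts in those of day 2, and each other library had at least 758 counts. All 7 macrophage markers examined were detected in each of the 4 arms of genotype and treatment, and their summed level was 15000 to 47900 CPM, the count scaled to a common library size with TMM factors. Markers of dendritic cells, of granulocytes and progenitors and of fibroblasts summed to at most 17.9 CPM in any library, and those of T and NK cells and B cells to at most 0.173 CPM. In Trex1 WT/FL cells, mean *Trex1* levels on days 1 to 4 were 13.6, 57.2, 74.2 and 48.4 CPM after 4-OHT. Without 4-OHT they were 30.3, 119, 135 and 84.3 CPM.

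Together the 10 genes took up 1.38 to 1.40% of all counts on day 1 in the 4 arms and 2.65 to 3.32% on day 4. After 4-OHT, their share on day 3 was 3.49 and 3.52% in the FL/FL libraries and 2.69 and 2.86% in the WT/FL libraries. On day 4 these values were 3.27 and 3.37% against 2.77 and 2.86%. Untreated cells held 2.65% (FL/FL) and 2.59% (WT/FL) on day 3, as means of 2 libraries. Thus the 2 FL/FL libraries lay above the controls on days 3 and 4, and those of day 1 did not. Summed over all 32 libraries, *Ctsb* gave 40.5% of the cathepsin counts, *Ctsd* 30.4%, *Ctss* 10.4% and *Ctsl* 7.53%, and *Ctse* only 0.00481%.

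**Figure D1:**
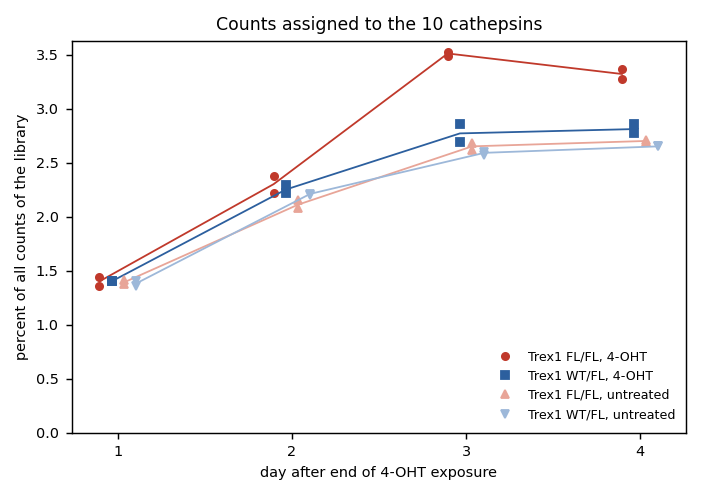
Percent of all counts of a library that were assigned to the 10 cathepsins, against the day of sampling after 4-OHT. Each point is a library and lines join group means. 4-OHT-treated Trex1 FL/FL cells reach 3.49 and 3.52% on day 3, above all other libraries.

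When levels are scaled to the length of annotated exons (CPM per kilobase), *Ctsd* ranked highest in 4-OHT-treated cells of both genotypes on days 1 and 4, followed by *Ctsb*. On day 4 in Trex1 FL/FL cells, *Ctsd* had 3860 ± 23.5, *Ctsb* 1940 ± 68.4 and *Ctss* 1070 ± 16.7 CPM per kilobase (SD, n = 2). *Ctsz* (363 ± 5.00), *Ctsl* (342 ± 1.42), *Ctsa* (203 ± 6.11), *Ctsc* (128 ± 10.3), *Ctsh* (63.3 ± 0.226), *Ctsk* (2.44 ± 0.437) and *Ctse* (0.473 ± 0.225) followed, and neighbours in this order did not overlap. In 4-OHT-treated Trex1 WT/FL cells of the same day *Ctsl* (351 ± 55.9) stood above *Ctsz* (279 ± 2.29). On day 1 *Ctsk* was level with *Ctsa* (112 ± 8.82 and 108 ± 2.45 in FL/FL cells), and these libraries overlapped. Salmon uses its own effective lengths, so these values only order the genes.

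**Figure D2:**
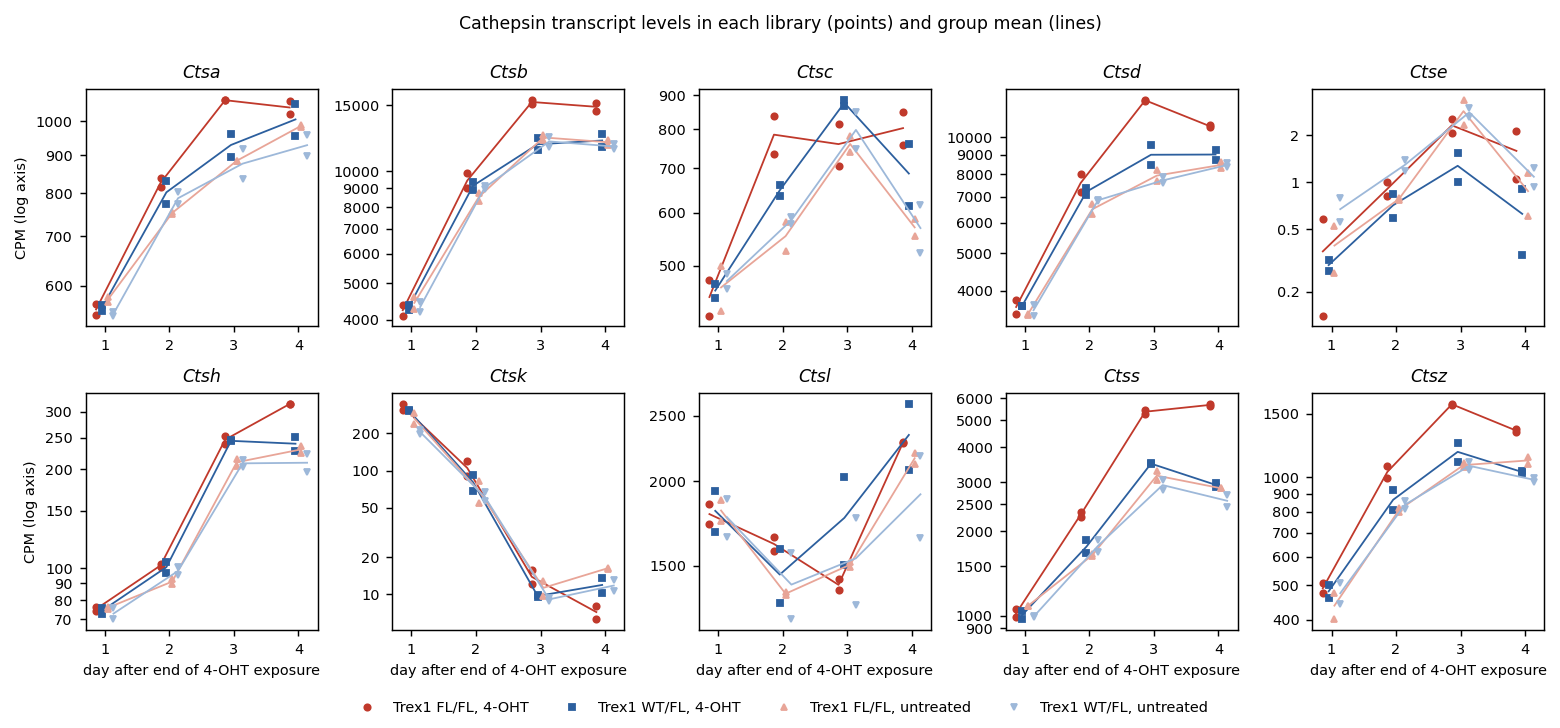
Level of each cathepsin in CPM (log axis, a scale of its own for each gene) against the day of sampling after 4-OHT. Points are single libraries, lines join the means of 2 libraries, and colours mark genotype and treatment. *Ctss* on day 4 lies at 5606 and 5731 CPM in 4-OHT-treated FL/FL cells and at most at 2979 CPM in 4-OHT-treated WT/FL cells, and *Ctsk* falls from day 1 to day 3 in each of the 4 arms.

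The central comparison asks which transcripts differ between macrophages that lost *Trex1* and equally treated controls. No cathepsin passed the test on day 1. In 4-OHT-treated FL/FL cells, *Ctss* was higher on day 2, *Ctsa*, *Ctsb*, *Ctsd*, *Ctss* and *Ctsz* were higher on day 3, and *Ctsb*, *Ctsd*, *Ctsh*, *Ctss* and *Ctsz* were higher on day 4. The loss refers to transcripts. In the paper's Western blots much TREX1 protein remained on day 2, very little on day 3 and none was detected on day 4. No cathepsin passed in the lower direction on any day. A gene passed when its p from the quasi-likelihood test of edgeR, adjusted by the method of Benjamini and Hochberg for all genes tested, was below 0.01. By this rule 0 of 10 cathepsins were called on day 1 (0.0197% of all genes tested), 1 on day 2 (8.17%), 5 on day 3 (12.1%) and 5 on day 4 (21.5%). In the higher direction the shares over all genes were 5.69, 6.69 and 9.84% on days 2 to 4. The median log2 fold change of the 10 genes was 0.00574, 0.205, 0.409 and 0.272 on days 1 to 4, and that of all genes tested was −0.0106, −0.00965, −0.00728 and −0.0366. On day 1, 0 cathepsins had an unadjusted p below 0.05 and 0 were called by DESeq2. None of the 10 also exceeded the study's further threshold, an absolute log2 fold change of 1.5, while 0.0131, 0.583, 0.872 and 2.98% of all genes tested did on days 1 to 4. In bulk RNA, a change in the share of cells of a type and a change in RNA per cell cannot be told apart. Of the 7 macrophage markers, *Fcgr1* was higher on days 2 to 4 (log2 fold changes 1.52, 1.275 and 2.265, edgeR adjusted p = 4.75e-09, 4.26e-08 and 1.82e-12) and *Cd68* on day 3 (0.24, 0.00263). *Csf1r* (−0.36 and −0.28, edgeR adjusted p = 3.74e-05 and 0.000403) and *Itgam* (−0.34 and −0.35, 0.000434 and 0.000149) were lower on days 3 and 4 and *Lyz2* on days 2 and 3 (−0.38 and −0.34, 0.00215 and 0.00485). *Adgre1* and *Mertk* did not pass, and the dendritic cell marker *Itgax* was lower on days 3 and 4 (−1.55 and −2.285, edgeR adjusted p = 4.26e-05 and 1.02e-07). Their part in the differences of the cathepsins was not tested.

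**Figure D3:**
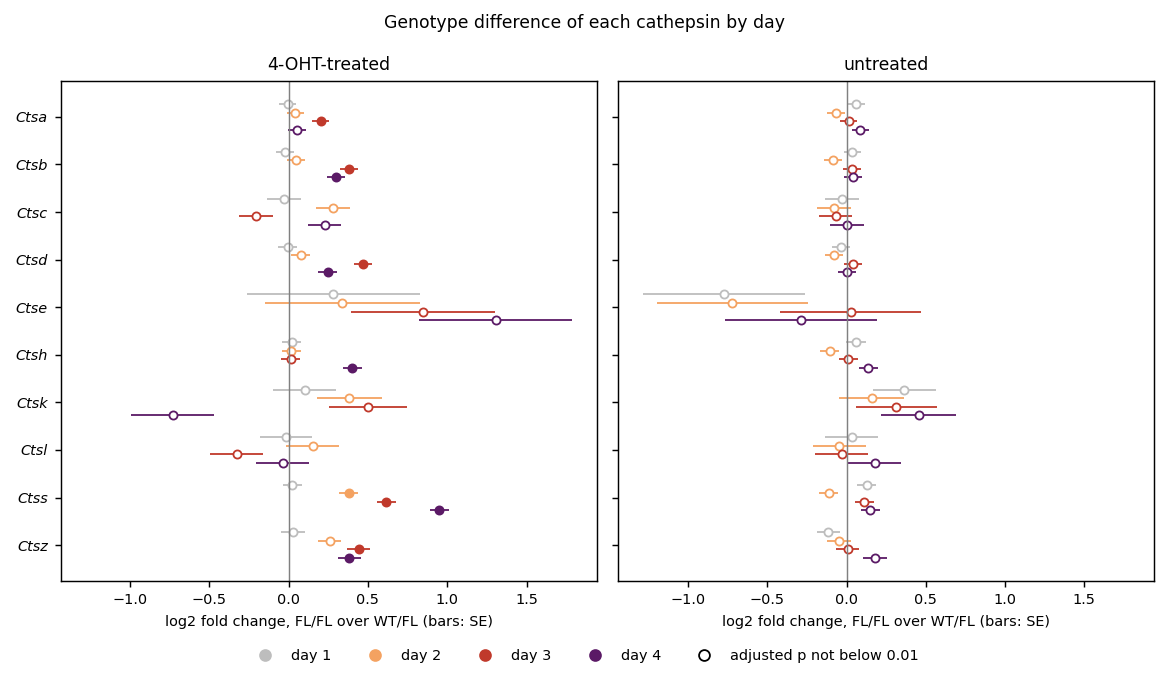
Log2 fold change of each cathepsin in Trex1 FL/FL over Trex1 WT/FL cells on days 1 to 4, in 4-OHT-treated (left) and untreated cells (right). Bars are standard errors, filled points passed at an adjusted p below 0.01. In treated cells 5 genes pass on day 3 and 5 on day 4, and in untreated cells no gene passes.

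*Ctss* (ENSMUSG00000038642.10, chromosome 3, 95433963 to 95463717 of GRCm39, plus strand) encodes cathepsin S, which completes the breakdown of the invariant chain in MHC class II antigen presentation and stays active at neutral pH. On day 1 its level was 986 and 1052 CPM in 4-OHT-treated FL/FL cells and 1035 and 970 CPM in 4-OHT-treated WT/FL cells, so the groups overlapped. On day 2 the FL/FL libraries held 2253 and 2340 CPM and the WT/FL libraries 1859 and 1671 CPM. On day 3 the values were 5447 and 5274 CPM against 3475 and 3518 CPM. On day 4 they were 5731 and 5606 CPM against 2979 and 2894 CPM, and from day 2 on each FL/FL library was above each WT/FL library. The log2 fold change of day 2 was 0.38 (SE 0.06, edgeR adjusted p = 3.95e-05), that of day 3 was 0.62 (SE 0.06, 2.61e-08) and that of day 4 was 0.95 (SE 0.06, 1.63e-12). On day 4 this is a 1.93-fold difference, and *Ctss* ranked at place 1062 of 15257 genes by log2 fold change. Between days 1 and 2 the genotype difference itself grew by 0.36 (SE 0.09, edgeR adjusted p = 0.00969), a test that 3.02% of all genes passed. Its growth of 0.24 between days 2 and 3 (adjusted p = 0.148) and of 0.33 between days 3 and 4 (0.0141) did not pass.

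The promoters of the cathepsins were searched for known motifs, and the sites are shown because they are the sequence that genes of this group do or do not share. Promoters, from 250 bases before to 50 bases after the start, were taken from RefSeq on the mouse build GRCm38.p6, which is not the build of the counts. Of the 10 genes, 7 had an entry, with 8 promoters, and *Ctsb*, *Ctse* and *Ctsh* had none. The IFN-stimulated response element, ISRE, is bound by IRF transcription factors and was searched on both strands as GAAA, any 2 bases and GAAA. It occurs in 3.44% of 32851 promoters and, among the cathepsins, only in that of *Ctss*, where it begins 21 bases before the start on the sense strand (chr3:95526755-95526784, plus strand, motif in capitals).
Ctss: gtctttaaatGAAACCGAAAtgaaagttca
The CLEAR element, bound by TFEB and related factors that control lysosomal genes, was searched as GTCACGTG on both strands and occurs in 2.25% of promoters. It contains the E-box CACGTG (7.15% of promoters), so each of its sites is also an E-box. Of the cathepsins, *Ctsa* and *Ctsd* had 2 sites each, shown on the strand of the gene with the element in capitals, where CACGTGAC is its reverse complement. Both sites of *Ctsa* lie in 1 of its 2 promoters. Those of *Ctsa* begin 14 bases before and 5 bases after the start (chr2:164833749-164833776 and chr2:164833768-164833795, plus strand), and those of *Ctsd* 245 and 98 bases before it (chr7:142388055-142388077 and chr7:142387908-142387935, minus strand).
Ctsa, upstream: tgagcaaactGTCACGTGatgcagatgc
Ctsa, downstream: tgcagatgctCACGTGACcagagctaca
Ctsd, distal: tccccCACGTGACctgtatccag
Ctsd, proximal: gcccgcgtctCACGTGACccgttgaggg
*Ctsl* had an E-box without the CLEAR flank 236 bases before its start (chr13:64370741-64370766, minus strand).
Ctsl: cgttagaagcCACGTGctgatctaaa
None of these 3 motifs was found in the promoters of *Ctsc*, *Ctsk* and *Ctsz* or in the other promoter of *Ctsa*, which says only that these letters are not in these windows. A match is a description and was not tested for binding.

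*Ctsb* (ENSMUSG00000021939.8, chromosome 14, 63358384 to 63383372, plus strand) encodes cathepsin B, an abundant endo- and carboxypeptidase of lysosomes. It held 15130 and 15520 CPM in 4-OHT-treated FL/FL cells on day 3 against 11360 and 12230 CPM in the WT/FL libraries, and 14500 and 15240 against 11610 and 12560 CPM on day 4. The FL/FL libraries were above the WT/FL libraries on both days and overlapped with them on days 1 and 2. The log2 fold change was 0.38 on day 3 (SE 0.06, edgeR adjusted p = 1.75e-05) and 0.30 on day 4 (SE 0.06, 0.00015). Without the first WT/FL library of day 4 it was 0.24 with an adjusted p of 0.0102 in edgeR.

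*Ctsd* (ENSMUSG00000007891.16, chromosome 7, 141929646 to 141941775, minus strand) encodes the main aspartic protease of lysosomes. In 4-OHT-treated FL/FL cells it held 7196 and 8009 CPM on day 2, 12480 and 12430 CPM on day 3 and 10630 and 10720 CPM on day 4. The WT/FL libraries had 7056 and 7375, 8468 and 9523, and 8739 and 9276 CPM on these days, which are all below the FL/FL libraries on days 3 and 4 and overlap with them on day 2. The log2 fold change rose from 0.08 on day 2 (edgeR adjusted p = 0.498) to 0.47 on day 3 (SE 0.06, 1.07e-06), a change of 0.39 that passed the test (SE 0.08, 0.00762, 0.905% of all genes). On day 4 it was 0.24 (SE 0.06, edgeR adjusted p = 0.00168). Leaving out either FL/FL library or the first WT/FL library of day 4 ended the day 4 call, at log2 fold changes of 0.20 to 0.25 and adjusted p of 0.0134 to 0.0439.

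*Ctsz* (ENSMUSG00000016256.10, chromosome 2, 174267304 to 174280832, minus strand), whose product is a carboxypeptidase, held 995 and 1072 CPM in 4-OHT-treated FL/FL cells on day 2 against 807 and 922 CPM in WT/FL cells. It held 1590 and 1603 against 1105 and 1247 CPM on day 3, and 1360 and 1334 against 1027 and 1039 CPM on day 4, with no overlap on these 3 days. The log2 fold changes were 0.26 (SE 0.07, edgeR adjusted p = 0.0198), 0.44 (SE 0.07, 8.19e-05) and 0.38 (SE 0.07, 0.000207). Only the last 2 passed, while DESeq2 also called day 2 (adjusted p = 0.00552).

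*Ctsh* (ENSMUSG00000032359.14, chromosome 9, 89936205 to 89958148, plus strand) encodes an aminopeptidase. Its groups overlapped until day 3, when FL/FL libraries held 254 and 239.5 CPM and WT/FL libraries 245 and 244 CPM after 4-OHT. On day 4 the FL/FL libraries held 317 and 316 CPM and the WT/FL libraries 228 and 251 CPM, a log2 fold change of 0.40 (SE 0.06, edgeR adjusted p = 6.95e-06). The change of 0.39 in the genotype difference from day 3 to day 4 passed the test (SE 0.09, edgeR adjusted p = 0.00373, 3.7% of all genes), so *Ctsh* first passed on day 4.

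*Ctsa* (ENSMUSG00000017760.16, chromosome 2, 164674778 to 164682961, plus strand) encodes the protective protein that holds the lysosomal enzymes NEU1 and GLB1 together. On day 3 it stood at 1067 and 1069 CPM in FL/FL cells and at 896 and 962 CPM in WT/FL cells after 4-OHT (log2 fold change 0.20, SE 0.05, edgeR adjusted p = 0.009). On day 4 the libraries overlapped at 1022 and 1066 against 955 and 1057 CPM. The day 3 call was lost without either FL/FL library or the first WT/FL library, with adjusted p of 0.0512 to 0.158 in edgeR. Of the 31-base words in its annotated transcripts, 31.4% also occur in other genes, most of them in the neighbouring gene *Pltp*, so the division of reads between both is uncertain. *Pltp* had 1547 and 1512 CPM in the same FL/FL libraries and 1870 and 1534 CPM in the WT/FL libraries (log2 fold change −0.15, edgeR adjusted p = 0.467). Its part in the value of *Ctsa* was not tested.

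Shared words were also frequent for *Ctsz* (28.5%, mainly with *Nelfcd*), *Ctsl* (26.9%, with *Gm47123*), *Ctsd* (21.2%, with *Gm49369*) and *Ctsb* (13.8%, with *Fdft1*), and made up at most 3.47% of the other 5 genes. Except for *Pltp*, these partners reached 8.46% of the level of *Ctsz* and at most 1.04% of that of *Ctsl*, *Ctsd* and *Ctsb* in any library.

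*Ctsc*, *Ctsl*, *Ctse* and *Ctsk* did not pass in the genotype comparison on any day. *Ctsc* (ENSMUSG00000030560.17, chromosome 7, 87927092 to 87960096, plus strand) encodes the dipeptidyl peptidase that activates granule serine proteases. After 4-OHT its FL/FL libraries lay above the WT/FL libraries on day 2 (734.5 and 837 against 661 and 636 CPM) and below them on day 3 (705 and 816.5 against 886 and 868 CPM). The log2 fold changes were 0.28 (SE 0.11, edgeR adjusted p = 0.105) and −0.205 (SE 0.11, 0.211). *Ctsl* (ENSMUSG00000021477.9, chromosome 13, 64507151 to 64518704, minus strand) encodes an endopeptidase that also processes other cathepsins. On day 3 it stood at 1380 and 1431 CPM in FL/FL cells and at 2027 and 1504 CPM in WT/FL cells (log2 fold change −0.33, SE 0.17, edgeR adjusted p = 0.205), and both FL/FL libraries lay below both WT/FL libraries, which stood far apart from each other. *Ctse* (ENSMUSG00000004552.16, chromosome 1, 131566009 to 131603243, plus strand), an aspartic protease of endosomes, had 7 to 139 counts per library. On day 4 it held 1.05 and 2.12 CPM in FL/FL cells and 0.911 and 0.346 CPM in WT/FL cells (log2 fold change 1.31, SE 0.48, edgeR adjusted p = 0.0407).

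*Ctsk* (ENSMUSG00000028111.4, chromosome 3, 95406178 to 95416732, plus strand) encodes the collagen-degrading cathepsin of osteoclasts and lies 17230 bases upstream of *Ctss*. After 4-OHT it stood at 348 and 311.5 CPM in FL/FL cells and at 310 and 305 CPM in WT/FL cells on day 1. On day 3 it held 15.6 and 12.1 CPM in FL/FL cells and 9.42 and 9.94 CPM in WT/FL cells, and on day 4 it held 8.08 and 6.265 CPM against 13.6 and 10.2 CPM. Thus the FL/FL libraries were above the WT/FL libraries on day 3 and below them on day 4. The log2 fold changes were 0.50 (SE 0.24, edgeR adjusted p = 0.187) and −0.73 (SE 0.26, 0.0433), and neither passed. On day 4 DESeq2 called *Ctsk* lower (log2 fold change −0.72, adjusted p = 0.0062).

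The summed level of markers of osteoclasts, which form from the same precursors, was lower on day 3 than on day 1 in each of the 4 arms, as was that of *Ctsk*. The 5 markers (*Acp5*, *Calcr*, *Ocstamp*, *Dcstamp* and *Mmp9*) were all in the table, and *Calcr* and *Ocstamp* were at 0 in some libraries. Their sum was 267 to 438 CPM on day 1, 70.4 to 184 CPM on day 2 and 18.2 to 27.0 CPM on day 3 over the 4 arms. On day 4 it was 19.0 and 16.7 CPM in 4-OHT-treated FL/FL cells, 64.7 and 60.2 CPM in 4-OHT-treated WT/FL cells and 58.3 to 71.4 CPM in untreated cells. *Mmp9* and *Dcstamp* were lower in 4-OHT-treated FL/FL than WT/FL cells on day 3, with log2 fold changes of −1.60 (edgeR adjusted p = 0.000195) and −2.19 (0.000351), when that of *Ctsk* was 0.50, and on day 4, with −2.77 (8.97e-08) and −2.55 (3.12e-06). The other 3 did not pass on these days, and *Acp5*, the most abundant of the 5, had log2 fold changes of 0.70 on day 3 (edgeR adjusted p = 0.0796) and 0.65 on day 4 (0.112). The part of osteoclast-like cells in the level of *Ctsk* was not tested.

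Without 4-OHT, the same genotypes were compared as a background. No cathepsin passed on days 1 to 4, when 0, 0, 0 and 0.0655% of all genes tested were called by edgeR. On these days 1, 0, 0 and 3 of the 10 had an unadjusted p below 0.05, and DESeq2 called 0 on each. *Ctss* differed by 0.15 on the log2 scale between untreated FL/FL and WT/FL cells on day 4 (SE 0.06, edgeR adjusted p = 0.208), at 2850 and 2853 CPM against 2705 and 2442 CPM.

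Whether 4-OHT itself moved the cathepsins was asked in each genotype. In Trex1 WT/FL cells no cathepsin passed on any day in edgeR, with 0.00655, 0.0918, 0.341 and 0.216% of all genes called on days 1 to 4. Of the 10, 2, 0, 4 and 4 had an unadjusted p below 0.05, and DESeq2 called *Ctss* on day 3 (log2 fold change 0.25, adjusted p = 0.00527) and none on the other days. In Trex1 FL/FL cells 0, 4, 6 and 7 cathepsins passed on days 1 to 4, against 0.0131, 11.1, 15.7 and 21.4% of all genes. On day 1 there was 1 with an unadjusted p below 0.05 and 0 by DESeq2. The 4 of day 2 were *Ctsc*, *Ctsd*, *Ctss* and *Ctsz* and the 6 of day 3 *Ctsa*, *Ctsb*, *Ctsd*, *Ctsh*, *Ctss* and *Ctsz*, all higher (7.49 and 8.12% of all genes). On day 4 *Ctsb*, *Ctsc*, *Ctsd*, *Ctsh*, *Ctss* and *Ctsz* were higher (10.2% of all genes) and *Ctsk* was lower (11.2%).

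The largest of these treatment effects in FL/FL cells on day 4 were a log2 fold change of 0.99 for *Ctss* (SE 0.06, edgeR adjusted p = 5.07e-13) and of −1.175 for *Ctsk* (SE 0.26, 0.002). *Ctsk* stood at 16.1 and 16.4 CPM in untreated FL/FL cells and at 8.08 and 6.265 CPM after 4-OHT, so the groups did not overlap. *Ctsc* changed by 0.50 on day 2 (SE 0.11, edgeR adjusted p = 0.0017) and by 0.49 on day 4 (SE 0.11, 0.00111). Leaving out single libraries ended the calls of *Ctsc*, *Ctsd* and *Ctsz* on day 2 and of *Ctsh* on day 3. It also ended those of *Ctsc*, *Ctsk* and *Ctsz* on day 4. The calls of *Ctsh* on day 3 and of *Ctsz* on day 4 were lost whichever of the 4 libraries was left out. Each other call named here was lost in 2 or 3 of the 4 fits. Calls of *Ctss* on days 2 to 4 and of *Ctsb* and *Ctsd* on days 3 and 4 held without any 1 library. These comparisons share the 4-OHT-treated FL/FL libraries with the genotype comparison above.

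A difference between the 4-OHT effects of the genotypes was tested as an interaction. On day 1, 0 of 10 cathepsins passed and 0 had an unadjusted p below 0.05 (edgeR, 0.00655% of all genes called). *Ctss* passed on day 2 (0.49, SE 0.09, edgeR adjusted p = 0.000269), when 4.04% of all genes did. On day 3 it passed again (0.50, SE 0.09, 0.000247), with *Ctsb* (0.34, SE 0.08, 0.00645), *Ctsd* (0.43, SE 0.08, 0.000973) and *Ctsz* (0.43, SE 0.11, 0.00826), as did 4.65% of all genes. On day 4 only *Ctss* passed among the 10 (0.80, SE 0.09, 7.8e-08), with 10.4% of all genes. *Ctsh* (0.27, adjusted p = 0.0317) and *Ctsk* (−1.19, SE 0.35, 0.0291) did not pass on day 4.

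The course in culture was examined in each of the 4 arms. From day 1 to day 4, *Ctsa*, *Ctsb*, *Ctsd*, *Ctsh*, *Ctss* and *Ctsz* rose and *Ctsk* fell in each of the 4 arms. *Ctsc* also rose in 4-OHT-treated cells of both genotypes, *Ctse* rose in 4-OHT-treated FL/FL cells, and *Ctsl* did not pass in any arm. The call of *Ctse* was lost without the second library of day 1 (1.43, edgeR adjusted p = 0.0308) or of day 4 (1.54, 0.0293). This makes 9 of 10 called in 4-OHT-treated FL/FL cells, 8 in 4-OHT-treated WT/FL cells and 7 in each untreated arm, when 56, 54.4, 54.4 and 53.9% of all genes tested were called. With a fold threshold of 1.5 on the log2 scale these numbers were 6, 3, 2 and 2, and 16.4, 14.6, 14.6 and 13.9% over all genes. With the order of the title numbers as a block, described below, *Ctsc* passed as higher in each arm. *Ctsl* then passed as higher in all arms but untreated WT/FL cells.

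**Figure D4:**
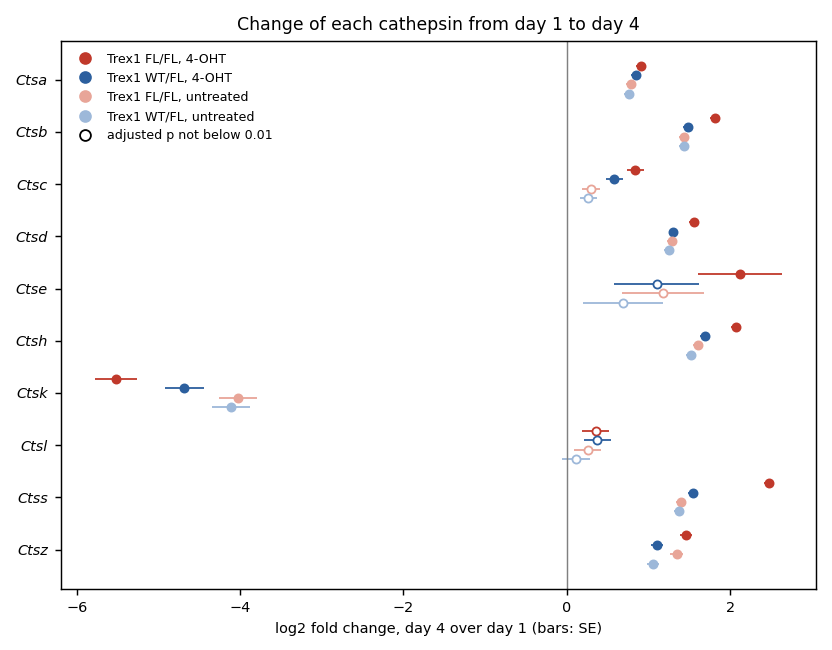
Log2 fold change of each cathepsin from day 1 to day 4 in the 4 arms of genotype and treatment. Bars are standard errors, filled points passed at an adjusted p below 0.01. *Ctsk* lies between −5.52 and −4.02 and *Ctss* between 1.38 and 2.48.

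*Ctss* rose by a log2 fold change of 2.48 in 4-OHT-treated FL/FL cells (SE 0.06, edgeR adjusted p = 2.49e-22), which is 5.56-fold, and by 1.55, 1.40 and 1.38 in 4-OHT-treated WT/FL, untreated FL/FL and untreated WT/FL cells. *Ctsh* rose by 2.07, 1.69, 1.60 and 1.525 in the same order, and *Ctsb* by 1.81, 1.49, 1.43 and 1.43. *Ctsd* rose by 1.56, 1.31, 1.29 and 1.25, *Ctsz* by 1.46, 1.105, 1.345 and 1.05 and *Ctsa* by 0.91, 0.85, 0.78 and 0.76. Beside *Ctsa*, *Pltp* rose by 4.60 to 4.98 in the 4 arms. In each arm *Ctsa* changed least of these 6 genes.

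*Ctsk* fell by 5.52 on the log2 scale in 4-OHT-treated FL/FL cells (SE 0.26, edgeR adjusted p = 1.88e-12). Its log2 fold change was −4.69 in 4-OHT-treated WT/FL cells (SE 0.24), −4.02 in untreated FL/FL cells (SE 0.23) and −4.11 in untreated WT/FL cells (SE 0.24). This is a 45.8-fold decrease in the first arm and a 16.2- to 25.7-fold decrease in the others. Over the same days its neighbour *Ctss* rose. Most of the fall of *Ctsk* took place until day 3, with log2 changes of −1.65 (FL/FL) and −1.93 (WT/FL) from day 1 to day 2 and of −2.94 and −3.06 from day 2 to day 3 in 4-OHT-treated cells.

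The step from day 3 to day 4 was also tested in each arm. *Ctsh* (0.36, SE 0.06, edgeR adjusted p = 0.000103) and *Ctsl* (0.70, SE 0.17, 0.0077) rose and *Ctsd* fell (−0.22, SE 0.06, 0.00825) in 4-OHT-treated FL/FL cells, where 9.33% of all genes were called. In 4-OHT-treated WT/FL cells *Ctss* fell (−0.25, SE 0.06, edgeR adjusted p = 0.00322, 12.2% of genes called). *Ctsc* fell in untreated FL/FL cells (−0.42, SE 0.11, 0.00729, 13.6% of genes) and in untreated WT/FL cells (−0.49, SE 0.11, 0.00217, 12.3% of genes). No other member passed in this step in the main fit. Mean *Ctsl* also rose in 4-OHT-treated WT/FL (1765 to 2342 CPM), untreated FL/FL (1505 to 2163 CPM) and untreated WT/FL cells (1538 to 1913 CPM). With the order of the title numbers as a block, described below, *Ctsl* passed as higher in each arm. In that fit 5, 3, 4 and 3 members passed in the same order of arms as above, with 11.9, 15.1, 16.7 and 15.3% of all genes. *Ctsl*, whose level was 1249 to 2606 CPM in all 32 libraries, had its lowest group means on day 2 in 3 arms and on day 3 in 4-OHT-treated FL/FL cells.

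Over the means of the 16 groups, log2 levels of the 8 genes other than *Ctsk* and *Ctsl* were positively correlated with each other (Pearson's r 0.683 to 0.99 over 28 pairs), *Ctsk* was negatively correlated with them (−0.969 to −0.779), and *Ctsl* showed values of −0.338 to 0.345. The points share the 4 days, so these values describe the course in culture. The 3 genes most like each member by this measure included lysosomal enzymes for *Ctsb* (*Lgmn*, r = 0.997), *Ctsd* (*Neu1*, 0.993, and *Ctsz*, 0.99) and *Ctsa* (*Naglu*, 0.99). They also included genes of other kinds, such as *Clec4a1* for *Ctsb* (0.996). For *Ctsa*, *Fabp5* (0.991) ranked above *Naglu*. *Ctsz* was close to *Ticam1* and *H2-K1* (0.99 each) and *Ctsd* to *Atg12* (0.991). *Ctss* was most like *Cd53*, a tetraspanin of leukocytes (0.995), and *Arhgap25* (0.994). *Ctsh* was most like *Clec7a*, the receptor Dectin-1 (0.995), *Ctsc* like the DNase gene *Dnase1l3* (0.97) and *Ctsk* like *Atp5f1b* (0.995), *Cimap1c* (0.993) and *Vim* (0.991). For *Ctse* and *Ctsl* the closest genes were *Phactr1* (0.931) and *Zcchc7* (0.934).

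Genes that sort, process, inhibit or control cathepsins were examined as lists. None of them passed on day 1 in 4-OHT-treated cells (0.0197% of all genes called) or in untreated cells on any day. Of 11 genes for sorting and processing, all tested, day 2 had 1 higher and 1 lower, day 3 had 2 higher and 1 lower, and day 4 had 1 higher and 2 lower, when 8.17, 12.1 and 21.5% of all genes passed in either direction. The medians were 0.127, 0.0288 and −0.0253 on the log2 scale. *Sort1*, which encodes the sorting receptor sortilin, was lower on all 3 days. Its level was 24.4 and 20.2 CPM in FL/FL cells against 39.4 and 41.2 CPM in WT/FL cells on day 2, 14.6 and 16.0 against 43.3 and 39.5 CPM on day 3, and 12.9 and 12.6 against 57.55 and 65.1 CPM on day 4. The log2 fold changes were −0.85, −1.43 and −2.26 (SE 0.10 to 0.11, edgeR adjusted p = 7.3e-07, 1.57e-10 and 1.19e-14). From day 1 to day 4 *Sort1* fell in 4-OHT-treated FL/FL cells (−1.27, SE 0.11, edgeR adjusted p = 5.37e-11) and rose in the other 3 arms by 0.87 to 1.23.

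*Igf2r*, the large mannose 6-phosphate receptor, was lower on day 4, at 204 and 231 CPM in FL/FL cells against 371.5 and 345 CPM in WT/FL cells (log2 fold change −0.72, SE 0.07, edgeR adjusted p = 1.35e-08). *M6pr*, the small receptor, was higher on day 2 (0.22, SE 0.05, 0.002). *Gnptg*, which helps to make the mannose 6-phosphate tag, was higher on day 3 (0.36, SE 0.10, 0.00793). *Lgmn* encodes legumain, a protease that matures several cathepsins, and was higher on day 3 (0.27, SE 0.05, edgeR adjusted p = 0.000603) and day 4 (0.34, SE 0.05, 2.25e-05). Its FL/FL libraries held 1841 and 1899 CPM on day 4 and its WT/FL libraries 1449 and 1515 CPM.

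Of 17 inhibitors, 10 were tested, and the remaining 7 had at most 14 counts in any library. On day 2, 1 was higher, on day 3, 1 was higher and 1 lower, and on day 4, 4 were higher and 2 lower (8.17, 12.1 and 21.5% of all genes in either direction), with medians of 0.195, 0.0974 and 0.321. *Serpina3g*, a serpin that inhibits cysteine cathepsins, was higher on day 2 (9.85 and 10.1 against 2.66 and 2.61 CPM, log2 fold change 1.92, SE 0.38, edgeR adjusted p = 0.000883) and day 4 (1.785, SE 0.415, 0.00167). *Cst7*, cystatin F, which blocks cathepsin C, was higher on day 4 (4.01 and 3.18 against 1.33 and 1.66 CPM, 1.27, SE 0.25, 0.000226). *Ctla2b* was higher on day 4 (1.09, SE 0.20, 0.000327), whereas its paralog *Ctla2a* was lower on day 3 (−1.31, SE 0.26, 0.000534) and day 4 (−0.90, SE 0.25, 0.00715). *Cstb*, cystatin B, was higher on day 3 (0.31, SE 0.07, 0.000972).

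Of 8 transcription factors, day 2 had 2 higher and 2 lower, day 3 had 1 of each, and day 4 had 2 higher and 1 lower, beside the same shares of all genes (8.17, 12.1 and 21.5%), with medians of 0.0723, −0.137 and −0.035. *Irf1*, an IFN-inducible factor that binds ISREs, held 158.5 and 171 CPM against 98.3 and 94.05 CPM on day 2 and 151 and 156 against 77.8 and 78.65 CPM on day 4, and was higher on days 2, 3 and 4 (log2 fold changes 0.78, 0.41 and 0.97, edgeR adjusted p = 4.38e-10, 9.33e-06 and 6.07e-13). *Spi1*, which encodes the myeloid factor PU.1, was higher on day 2 (0.25, SE 0.06, 0.00469) and day 4 (0.38, SE 0.06, 1.57e-05). *Tfec*, a relative of TFEB, was lower on day 2 (−0.40, SE 0.10, 0.00395) and day 4 (−0.66, SE 0.10, 9.9e-06). *Nfatc1*, the osteoclast factor, was lower on day 2 (−0.23, SE 0.06, 0.00857) and *Irf8* on day 3 (−0.24, SE 0.06, 0.0086).

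Of 4 partners and substrates, *Cd74*, the invariant chain that cathepsin S cleaves, was lower on day 3, at 196 and 174 CPM in FL/FL cells against 324 and 400 CPM in WT/FL cells (log2 fold change −0.97, SE 0.16, edgeR adjusted p = 0.000201), when 12.1% of all genes passed. No other gene of this list passed in this comparison on any day, and *Ctss* was higher in the same libraries. Of 13 other cathepsin genes 3 were tested, and *Ctsf* was lower on day 3 (−0.57, SE 0.12, edgeR adjusted p = 0.00113). The remaining 10 had at most 3 counts in any library.

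**Figure D5:**
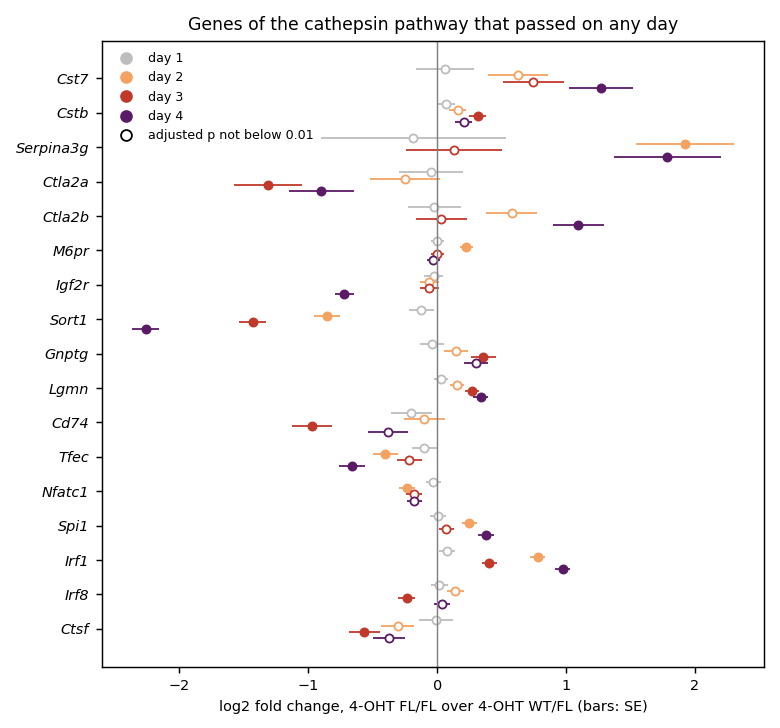
Log2 fold change in 4-OHT-treated Trex1 FL/FL over Trex1 WT/FL cells on days 1 to 4 for genes that inhibit, sort, process or control cathepsins, for *Cd74* and for *Ctsf*. All shown passed on at least 1 day. Of each list, at most the 4 passing genes with the largest change per day are shown, so *Cst3* and *Serpinb6a*, which passed on day 4, are left out. Bars are standard errors, filled points passed at an adjusted p below 0.01. *Sort1* moves from −0.85 on day 2 to −2.26 on day 4 and *Irf1* lies at 0.97 on day 4.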

How the data were processed

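RNA of 32 BMDM libraries was sequenced. The authors demultiplexed reads with JE, checked them with FastQC (11.9 in the submitters' processing notes) and quantified transcripts of GRCm39 with Salmon. They made gene-level values from these with tximport and deposited estimated counts, stored as whole numbers and not normalized. The annotation release is not given in the sources used here, and Salmon's division of reads shared by overlapping genes can affect *Ctsa* most. Symbols and positions were matched by Ensembl identifier, without version, to GENCODE vM39 (51048 of 54281 identifiers, the others holding 0.32% of counts).

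Genes were filtered with filterByExpr (minimum count 10), scaled by TMM factors and fitted with 1 mean per group in edgeR 4.0.16 (R 4.3.3, robust quasi-likelihood test, 16 residual degrees of freedom, 15257 genes). Adjusted p-values are Benjamini-Hochberg values over all genes, and fold changes are on the log2 scale of counts. Total counts were 35120505 to 63760884 per library, and CPM use these totals multiplied by the TMM factors. The smallest p an exact two-sided permutation of 2 against 2 libraries can give is 0.33, so no such test was used. Replicate libraries correlated at r of 0.9828 to 0.9897 over log2 CPM. The test was tested on simulated data for the genotype comparison of day 4 (15060 genes). It recovered 36 of 100 genes changed by 0.5 and 66 of 100 changed by 1 on the log2 scale, with 1 false call. The changed genes were drawn at random from all genes tested, whatever their level. Replicate numbers follow accession order, which is also the order of the title numbers. Alternatives were RLE factors, no filter, DESeq2 1.42.0 (the authors used 1.32), the 4-OHT-treated libraries alone, each library left out and, for lengths, the longest transcript. A fit with the order of the title numbers as a block was added after seeing the data. Interactions, changes of the genotype difference and consecutive days were tested only in the setting given here and with that block.

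Named were *Trex1*, the 10 cathepsins, of each pathway list at most the 4 members per day with the largest change among those that passed in 4-OHT-treated FL/FL against WT/FL cells, and the 3 tested genes most correlated with each cathepsin. The cathepsins and all lists were chosen with earlier results of these data known. 1 further nearest gene and 1 further promoter motif are not reported here.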

Additional observations from a re-analysis of the deposited data

Results flagged for a closer look

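The effect of 4-OHT differed between the genotypes by the interaction test (edgeR, adjusted p below 0.01) for *Ctss* on day 2 by 0.49, on day 3 by 0.50 and on day 4 by 0.80 on the log2 scale. On day 3 it also differed for *Ctsb* by 0.34, for *Ctsd* by 0.43 and for *Ctsz* by 0.43. The genotype difference in 4-OHT-treated cells changed between consecutive days for *Ctss* by 0.36 from day 1 to day 2, for *Ctsd* by 0.39 from day 2 to day 3 and for *Ctsh* by 0.39 from day 3 to day 4. All 9 differences of this fit are positive, and these tests share the 4-OHT-treated FL/FL libraries. With the order of the title numbers as a block, some differences also passed in the negative direction, as given below. Groups of 2 libraries were not examined for single libraries far from the others.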

How the results depend on the processing

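Of the cathepsins, 86 log2 fold changes that passed or lay beyond 2 SE were examined, and none changed direction under these alternatives. RLE factors kept 86 on their side of the threshold, DESeq2 83 and the fit without a filter 73. Among 344 values with 1 library left out, 30 no longer passed and 1 newly passed. *Ctss* in 4-OHT-treated FL/FL against WT/FL cells passed under each alternative, at 0.30 to 0.46 on day 2, 0.59 to 0.64 on day 3 and 0.93 to 0.97 on day 4.

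Without a filter on low counts, 4 cathepsins were called between the 4-OHT-treated genotypes on day 2, 1 between the untreated genotypes on days 1 and 4, 1 for 4-OHT in FL/FL cells on day 1 and 1 for 4-OHT in WT/FL cells on each of days 1 to 4. The cause was not tested. Shares over all genes were not computed for this fit, for DESeq2 or for the fits that leave out 1 library. With DESeq2, 2 were called between the 4-OHT-treated genotypes on day 2 and 1 for 4-OHT in WT/FL cells on day 3. The fit of 4-OHT-treated libraries alone lost *Ctsa* on day 3 (adjusted p = 0.0187 in edgeR), as did the fit without a filter (0.0287).

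Leaving out 1 library gave 1 to 2 calls on day 2, 4 to 5 on day 3 and 3 to 5 on day 4 between the 4-OHT-treated genotypes. On day 2 the second WT/FL library added *Ctsz* when left out (0.36, adjusted p = 0.00897 in edgeR), and on day 4 3 calls were left without the first WT/FL library. For 4-OHT in FL/FL cells there were 1 to 4 calls on day 2 and 4 to 6 on day 4. They fell to 1 on day 2 without the first untreated or the second 4-OHT-treated library, to 2 without the second untreated library, and to 4 on day 4 without the first untreated or the second 4-OHT-treated library. From day 1 to day 4 in 4-OHT-treated FL/FL cells 8 to 9 passed, and *Ctse* was lost without the second library of day 1 (1.43, adjusted p = 0.0308) or of day 4 (1.54, 0.0293). A lone library was assumed to vary like the other groups.

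With the longest transcript as the length, the day 4 order in 4-OHT-treated FL/FL cells was the same. The labels give no replicate numbers, animals or batches, but in each genotype the 8 lower and the 8 higher title numbers each hold 1 library of every group. Over all genes tested, the differences between lower- and higher-numbered libraries correlated between groups at r of 0.0242 to 0.118 in WT/FL and −0.00775 to 0.144 in FL/FL cells, above 0.1 in 5 of 28 pairs each. Low values over all genes do not decide whether the numbers pair the libraries. The cathepsins named at the start differed the same way in all 8 groups of a genotype. The main fit does not pair the libraries. With the title numbers as a replicate block, an alternative chosen after seeing the data, 7 cathepsins were called for 4-OHT in FL/FL cells on day 2 (13.4% of all genes). In WT/FL cells 1 was called on days 3 and 4 (0.531 and 0.551%). On days 3 and 4, 5 and 3 interactions passed (6.89 and 13% of all genes). Of these, *Ctsl* on day 3 (−0.30, edgeR adjusted p = 0.00816) and *Ctsk* on day 4 (−1.19, 0.00493) were negative and the others positive. From day 1 to day 4 10, 9, 9 and 8 were called in 4-OHT-treated FL/FL and WT/FL and untreated FL/FL and WT/FL cells (57.5, 56.3, 56.3 and 55.6% of all genes). *Ctsl* was among them in both treated arms (0.35 and 0.37) and in untreated FL/FL cells (0.26). The genotype difference changed for 1, 4 and 4 cathepsins between consecutive days (4.32, 2.18 and 5.3% of all genes). Negative changes were those of *Ctsc* (−0.48) and *Ctsl* (−0.47) from day 2 to day 3 and of *Ctsk* (−1.25) from day 3 to day 4. The other changes called were positive. If a run of numbers were 1 culture, the genotype comparisons would rest on 2 cultures per genotype, which these p-values do not take into account. In the simulated data, small changes passed only in part with 2 libraries per group. Their changed genes were drawn at random from all genes tested, so this does not give the recovery for the cathepsins. *Ctse* is limited by its 7 to 139 counts.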
